A study of Mus musculus with 72 samples.

Results

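The comparison described here is between hippocampi of trained mice taken 4 h after training (FC4) and 24 h after training (FC24), 9 arrays each, so 18 of the 72 arrays of the series, chosen by their sample labels. All mice were adult male C57BL/6J, 2 months old, housed alone on a cycle of 12 h light, handled for 3 days and then given contextual fear conditioning, a task in which an animal comes to fear the chamber where it was shocked (once, on the feet, for 2 s at 1.5 mA). Training began at 10 in the morning, 3 h after lights on, a time written as Zeitgeber time 3 (ZT3). FC4 mice were therefore dissected near ZT7, in the middle of the light phase, and FC24 mice near ZT3, early in the light phase of the next day. Time since training and time of day differ together between these groups, and within these 18 arrays their effects cannot be told apart. Mice that were handled but never trained supply a second comparison at similar hours and share no array with the first: CC4, the time-of-day control of FC4, against CC30, the control taken at the hour of the 30 min time point, again 9 arrays each. Each array holds RNA of both hippocampi of 1 mouse, from 9 independent repeats of the protocol over 2 weeks.

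Mice are active in the dark and rest in the light, so the interval from early to middle light phase is spent mostly at rest and asleep. In the clock of mammalian cells, CLOCK and BMAL1 (the product of Arntl) bind E-boxes in DNA and switch on their own repressors, among them the Per genes and Ciart, and the same feedback sets the daily rhythm of many output genes. Levels of corticosterone, the glucocorticoid hormone of mice, and brain temperature follow the day as well. Both act on transcripts of the hippocampus: glucocorticoid receptors there switch on genes such as Per1, Fkbp5 and Tsc22d3, and mild cooling raises the RNA-binding proteins Rbm3 and Cirbp. Sleep and wake change the demand on protein folding in the endoplasmic reticulum (ER), whose chaperones are led by Hspa5, also called BiP.

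Levels are log2 signals of probe sets, groups of short probes that report 1 transcript, after subtraction of the first principal component. They differ between genes for reasons of probe design, so a gene is compared only with itself. Differences are FC4 minus FC24 on the log2 scale, where 1 is a doubling, and a probe set was called when its adjusted p in limma was under 0.1 over all 35556 probe sets. Markers of pyramidal cells varied little between mice. The mean log2 signal of the CA1 and CA3 pyramidal cell list lay between 8.71 and 8.81 over the 18 trained mice. That of the dentate granule cell list varied more, between 7.87 and 8.15. Markers of the choroid plexus, a neighbouring secretory tissue that can be cut along with the hippocampus, varied more still. Their mean ran from 5.27 to 7.12 in FC4 and from 5.43 to 7.42 in FC24. That of meningeal fibroblast markers ran from 6.13 to 7.07 in FC4 and from 6.16 to 7.07 in FC24. That of oligodendrocyte markers ran from 8.86 to 9.24 and from 8.81 to 9.14. One FC4 mouse, replicate 3, stood apart from its group in several of the genes below, and their values without it are given where they differ.

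The groups differed in few transcripts and by small amounts. In FC4 against FC24, 40 probe sets were called, which is 0.112% of those tested, 28 of them higher in FC4 (0.0787%) and 12 lower (0.0337%). Their median size was 0.22 on the log2 scale, a 1.17-fold difference, and the smallest call was 0.14. An unadjusted p under 0.05 was reached by 2662 probe sets. Of the 40, 34 carried a single gene symbol and stood for 32 genes, 22 higher and 10 lower. The count depended on single mice: it was 69 without FC4 replicate 3, 26 without FC4 replicate 4 or replicate 7, 25 without FC4 replicate 9, 22 without FC24 replicate 2 and 17 without FC24 replicate 6. Of the 32 genes, 13 kept their call whichever 1 of the 18 mice was left out: Hif3a, Inmt, Xdh, Ciart, Rbm3, Dhx33, Mfsd2a, Grasp, St3gal1, Gm266, Mmp14, Rasal2 and Mthfd1l. In 16 of the 32 genes the FC4 and FC24 mice did not overlap, against 0.0591% of all probe sets. They were 12 of the rises, where 0.045% of all probe sets were higher without overlap, and 4 of the falls, where 0.0141% were lower.

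**Figure D1:**
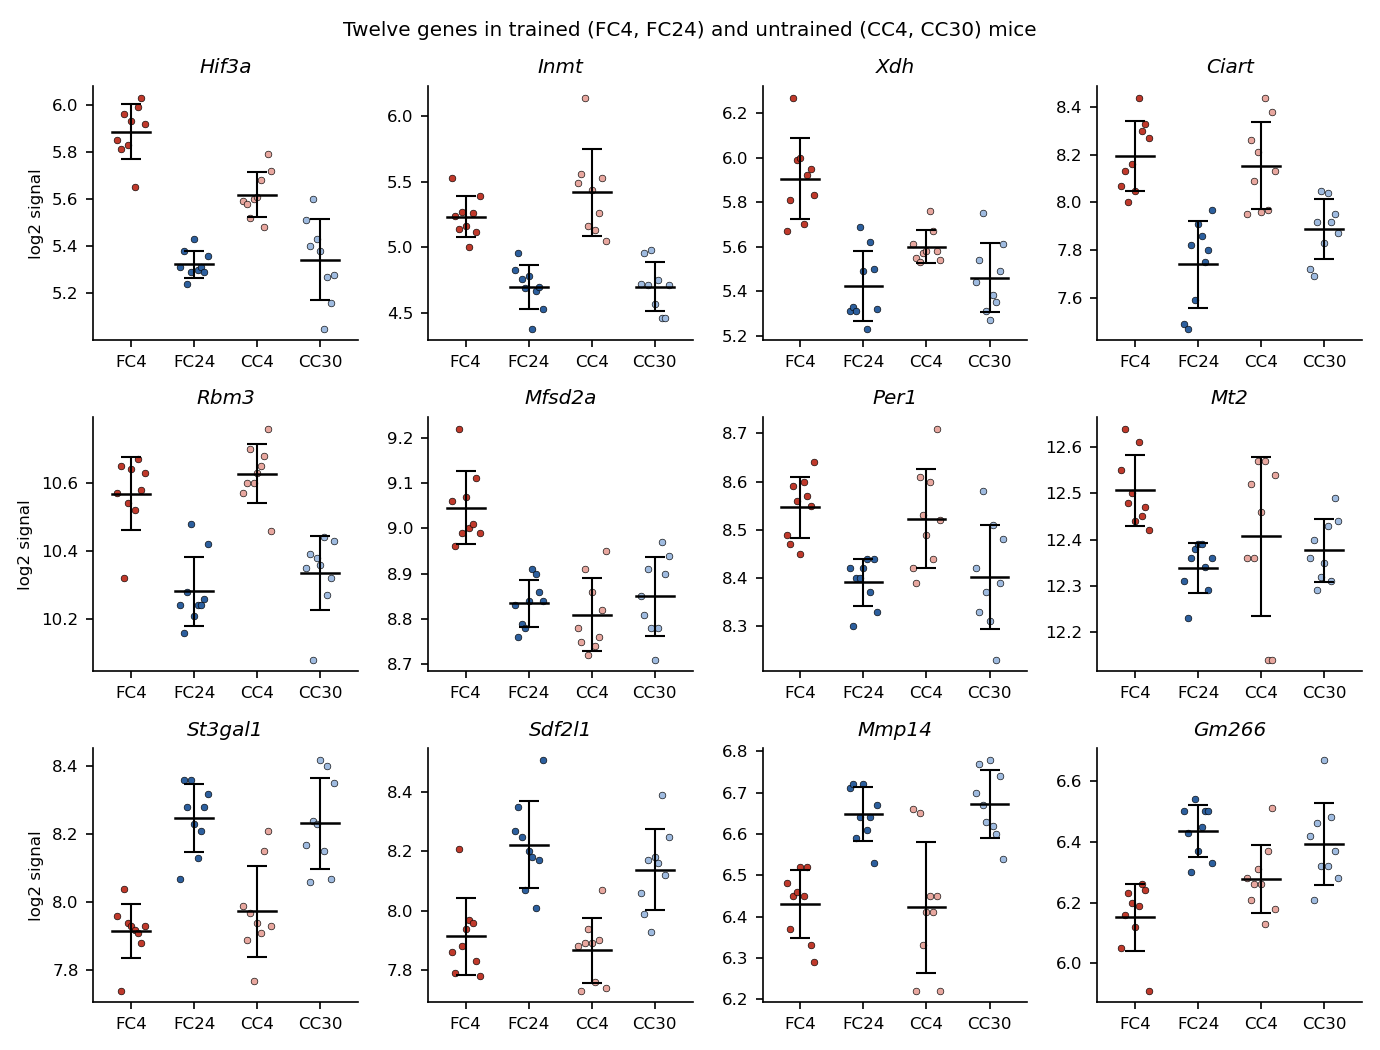
Log2 signal (y axis, a separate scale for each gene) of 12 called genes in each mouse of FC4, FC24, CC4 and CC30, with 9 points a group; the long bar is the mean and the error bar is the SD. Hif3a, Inmt, Ciart, Mfsd2a, Per1 and Mt2 were higher in every FC4 mouse than in any FC24 mouse, and St3gal1, Mmp14 and Gm266 lower in every FC4 mouse, while Xdh, Rbm3 and Sdf2l1 overlapped by 1 FC4 mouse.

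Among the 28 gene lists, that of genes that respond to glucocorticoids held the most calls. The lists and their members were chosen with earlier results of these data known, so this rank is not independent of them. Of 22 measured genes on that list, 5 were called higher in FC4 (Hif3a, Xdh, Mfsd2a, Mt2 and Per1) and 0 lower, where 0.106% of all 18820 genes with 1 probe set each were called higher. The median difference of the list was 0.12, against -0.002 over all genes. In all, 17 of the 22 lay above 0, against 48.3% of all genes. At an unadjusted p under 0.05, 13 were higher, against 4.0% of all genes. The mean log2 signal of the list lay between 7.34 and 7.50 in FC4 and between 7.23 and 7.32 in FC24, so no FC4 mouse was as low as any FC24 mouse. With 1 mouse left out, 3 to 5 of its genes were called, Hif3a, Xdh and Mfsd2a in every such fit. The count was 3 without FC4 replicate 4, 6, 7 or 8 and without FC24 replicate 2, 3, 5, 6, 7 or 9.

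Hif3a, which encodes a hypoxia-inducible factor subunit able to oppose its relatives, had the smallest adjusted p of the comparison. Its signal in FC4 was 5.65 at the lowest, 5.92 at the median and 6.03 at the highest mouse, and in FC24 it was 5.24, 5.31 and 5.43 (3 values after a group are its lowest, median and highest mouse throughout). Every FC4 mouse was above every FC24 mouse, and the difference was 0.56 ± 0.04 (SE, n = 9 and 9), a 1.48-fold rise with a limma adjusted p of 2.74e-06. Xdh, xanthine dehydrogenase of purine breakdown, read 5.67, 5.92 and 6.27 in FC4 and 5.23, 5.33 and 5.69 in FC24. A single FC4 mouse fell within the range of FC24, and the rise was 0.48 ± 0.08 (adjusted p = 0.0228). Mfsd2a, the transporter that carries docosahexaenoic acid into the brain across its endothelium, read 8.96, 9.01 and 9.22 in FC4 against 8.76, 8.84 and 8.91 in FC24. These groups did not overlap and differed by 0.21 ± 0.03 (adjusted p = 0.0228). Mfsd2a was the 1 call among 17 measured endothelial markers, where 0.154% of all genes were called. The list median was 0.02, and the tight junction gene Cldn5 on the same list read -0.23 ± 0.05 (adjusted p = 0.124).

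Mt2, a metallothionein that binds zinc and copper, read 12.42, 12.48 and 12.64 in FC4 and 12.23, 12.36 and 12.39 in FC24. Its groups did not overlap, although the rise was only 0.17 ± 0.03 (adjusted p = 0.0783) and held in 5 of the 18 fits that left out a mouse. Its neighbour in function, Mt1, read 0.14 ± 0.03 (adjusted p = 0.195). Per1 passed the test, but some other textbook glucocorticoid targets did not. Tsc22d3 read 0.29 ± 0.06 (adjusted p = 0.142), Sgk1 0.12 ± 0.03 (adjusted p = 0.208) and Fkbp5 0.17 ± 0.05 (adjusted p = 0.38). Pdk4, a kinase that restrains glucose oxidation, went the other way at -0.12 ± 0.04 (adjusted p = 0.395).

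**Figure D2:**
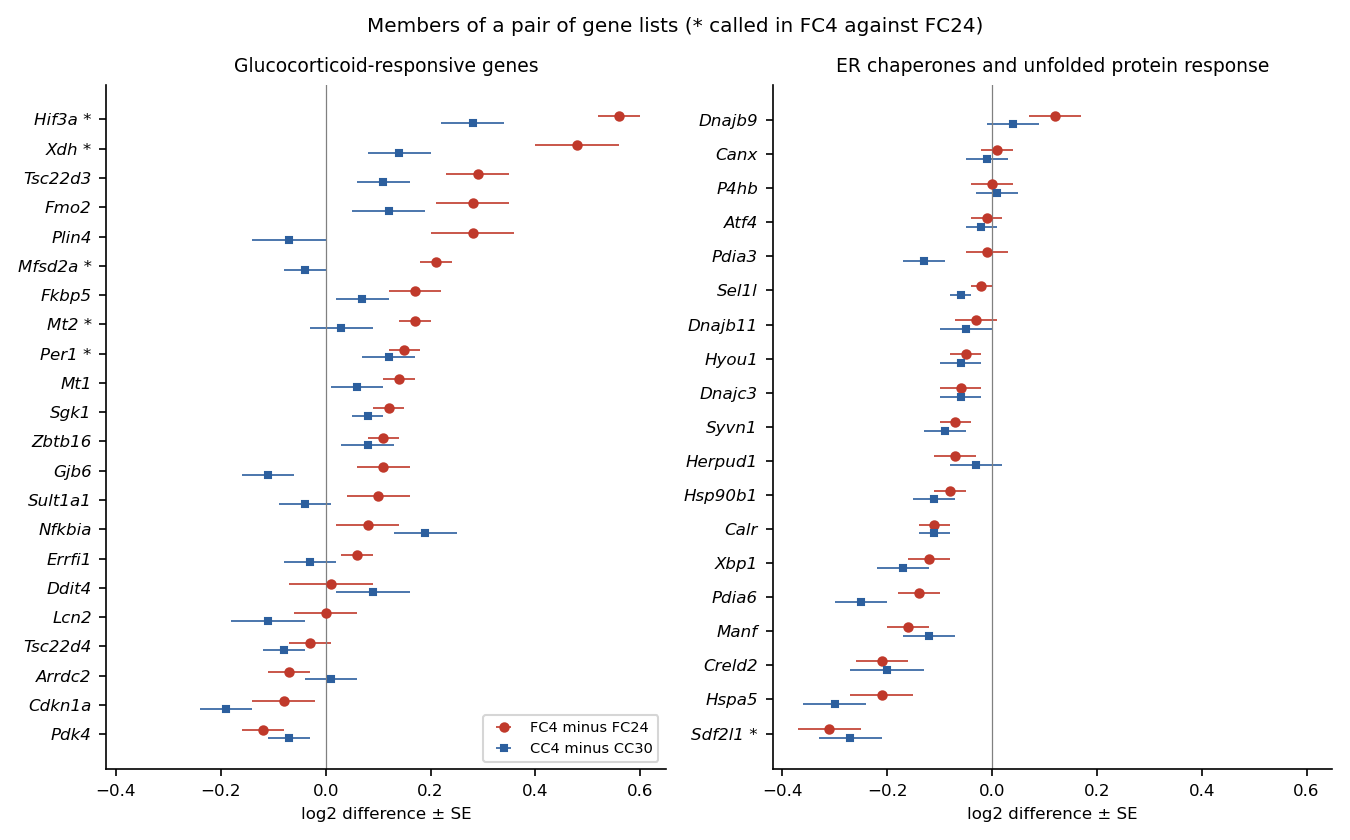
Log2 difference with its SE (x axis) for every measured gene of the glucocorticoid-responsive list (left, 22 genes) and of the ER chaperone and unfolded protein response list (right, 19 genes), in trained mice (red circles, FC4 minus FC24) and untrained mice (blue squares, CC4 minus CC30); an asterisk marks a gene called in FC4 against FC24. On the left Hif3a, Xdh, Plin4 and Mfsd2a lie well to the right of their blue squares, while on the right both colours run together below 0 from Sdf2l1 to Hsp90b1.

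The clock genes that rose were repressors of CLOCK and BMAL1. Of 12 measured clock repressors and outputs, 2 were called higher, Ciart and Per1, and 0 lower, where 0.106% of all genes were called higher. The list median was 0.04. Ciart read 8.0, 8.16 and 8.44 in FC4 and 7.47, 7.80 and 7.97 in FC24. No FC4 mouse was as low as any FC24 mouse, and the rise of 0.45 ± 0.07 was 1.37-fold (adjusted p = 0.0228). A second Ciart probe set gave 0.44 ± 0.09 (adjusted p = 0.118). Per1 read 8.45, 8.56 and 8.64 in FC4 against 8.30, 8.40 and 8.44 in FC24, again without overlap, a rise of 0.15 ± 0.03 (adjusted p = 0.0629). Ciart was called whichever mouse was left out, but Per1 lost its call, leaving 1 on the list, without FC4 replicate 4, 6, 7, 8 or 9 and without FC24 replicate 2, 3, 5, 6, 7 or 9. Per2 (0.01 ± 0.04), Per3 (0.03 ± 0.04) and the activator Arntl (-0.07 ± 0.04) were not called. One probe set that the array assigns to both Dbp, a clock output factor, and its neighbour Sphk2 rose by 0.38 ± 0.05 (adjusted p = 0.00489), from 8.09, 8.36 and 8.47 in FC24 to 8.51, 8.75 and 8.81 in FC4. Which of these genes it reports cannot be told from the probe set. A probe set shared by Nr1d1, the REV-ERB alpha repressor, and Thra read 0.24 ± 0.05 (adjusted p = 0.107) with no overlap of the groups.

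The E-box through which CLOCK and BMAL1 act, CACGTG, was searched for on both strands in RefSeq promoters of build GRCm38.p6, each from 250 bases before to 50 after a transcription start. It was found in 3 of 20 promoters of the called rises (15%), those of Ciart, Per1 and Dhx33, in 0 of 10 promoters of the called falls, and in 8.31% of the 18155 promoters of all genes measured. The D-box TTATGNAA, the site of Dbp and its relatives, was found in 1 promoter of the rises, that of Per1, and in 2.99% of all promoters. Promoters matched 18 of the 22 rises and 9 of the 10 falls. The 250 bases before the start are printed for the 3 rises that hold an E-box, since they show how many each holds and where, with E-boxes and the D-box in capitals. Ciart lies on the minus strand (chr3:95882229-95882478), Per1 on the plus strand (chr11:69098699-69098948, the first of its 2 listed starts) and Dhx33 on the minus strand (chr11:71004433-71004682).
Ciart: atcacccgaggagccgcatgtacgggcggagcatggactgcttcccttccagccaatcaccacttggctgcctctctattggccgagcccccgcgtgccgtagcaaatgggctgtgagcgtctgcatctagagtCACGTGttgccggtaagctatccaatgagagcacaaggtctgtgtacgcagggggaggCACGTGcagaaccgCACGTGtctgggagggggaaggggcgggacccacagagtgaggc
Per1: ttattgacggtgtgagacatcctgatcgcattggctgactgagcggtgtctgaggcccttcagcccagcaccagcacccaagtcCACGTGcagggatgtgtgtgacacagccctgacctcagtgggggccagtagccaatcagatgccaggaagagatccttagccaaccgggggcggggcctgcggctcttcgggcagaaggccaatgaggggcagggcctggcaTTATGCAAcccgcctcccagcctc
Dhx33: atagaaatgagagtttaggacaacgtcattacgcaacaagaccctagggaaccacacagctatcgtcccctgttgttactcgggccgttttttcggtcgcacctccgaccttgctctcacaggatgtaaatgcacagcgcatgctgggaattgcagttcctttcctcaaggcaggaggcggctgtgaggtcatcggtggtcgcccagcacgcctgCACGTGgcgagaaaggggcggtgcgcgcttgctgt
The Ciart promoter holds 3 E-boxes, which begin 116, 58 and 44 bases before the start. That of Per1 holds 1 E-box 166 bases before the start and a D-box at 24 bases, and that of Dhx33 1 E-box at 35 bases. A match is a description of the letters and not a measured binding site. Dhx33, an RNA helicase with a role in ribosomal RNA synthesis, read 8.83, 8.96 and 9.15 in FC4 and 8.66, 8.76 and 8.81 in FC24. Its groups did not overlap, and the rise was 0.21 ± 0.04 (adjusted p = 0.0337).

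Rbm3 rose in FC4, and most genes of the ER chaperone list read below 0. Rbm3, the cold-inducible RNA-binding protein, read 10.32, 10.58 and 10.67 in FC4 and 10.16, 10.24 and 10.48 in FC24 on its brightest probe set. All FC4 mice but replicate 3, at 10.32, were above every FC24 mouse, and the rise was 0.29 ± 0.05 (adjusted p = 0.0302). The 3 probe sets for Rbm3 were all called, at 0.27 to 0.29, but their values ran in parallel across mice and do not count as separate evidence. Cirbp, another of the 3 genes on the cold-inducible list, read 8.58, 8.79 and 8.90 in FC4 and 8.40, 8.49 and 8.89 in FC24. One FC24 mouse came near the top of the FC4 range, and the difference of 0.22 ± 0.06 did not pass (adjusted p = 0.284). Cirbp was called when FC24 replicate 4 was left out (0.26, adjusted p = 0.0416), and not without FC4 replicate 3 (0.24, adjusted p = 0.162). Srsf5, the remaining gene of that list, read 0.04 ± 0.04 (adjusted p = 0.857). In CC4 minus CC30 Srsf5 read 0.08 ± 0.05 (adjusted p = 0.896).

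Of 19 measured ER chaperones and unfolded protein response genes, 1 was called lower, Sdf2l1, where 0.0478% of all genes were called lower, and 0 were called higher. The list median was -0.07. Of the 19, 17 lay below 0, where 48.3% of all genes lay above 0. At an unadjusted p under 0.05, 8 were lower and 1 higher, against 4.06% and 4.0% of all genes. Sdf2l1, which works with Hspa5 on unfolded proteins in the ER, read 7.78, 7.88 and 8.21 in FC4 and 8.01, 8.20 and 8.51 in FC24. FC4 replicate 3, the highest at 8.21, was the 1 FC4 mouse inside the range of FC24, and the fall was -0.31 ± 0.06 (adjusted p = 0.0984). With 1 mouse left out, that call held in 3 of 18 fits, those without FC4 replicate 3, FC24 replicate 4 or FC24 replicate 7, and in the other 15 fits 0 genes of the list were called. Hspa5 read 9.94, 10.04 and 10.31 in FC4 and 10.11, 10.25 and 10.48 in FC24, a difference of -0.21 ± 0.06 that did not pass (adjusted p = 0.284). Again a single FC4 mouse, replicate 3 at 10.31, lay inside the FC24 range.

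Leaving out FC4 replicate 3 changed this list most. Without it 4 of the 19 genes were called lower: Sdf2l1 (-0.35, adjusted p = 0.023), Hspa5 (-0.24, adjusted p = 0.0785), Creld2 (-0.23, adjusted p = 0.0847) and Manf (-0.19, adjusted p = 0.056). Over all genes the share called lower was then 0.117%, against 0.0478% with all mice. Creld2 and Manf are ER proteins that are made under folding stress. The endothelial gene Cldn5 was then also called, at -0.25 (adjusted p = 0.0484), and likewise 2 endothelial genes were called without FC24 replicate 9. In replicate 3 the mean log2 signal of the ER list was 8.96, against 8.81 to 8.87 in the other 8 FC4 mice and 8.87 to 9.00 in FC24. The mean of the 3 cold-inducible genes in it was 9.24, against 9.35 to 9.49 in the other 8 and 9.16 to 9.40 in FC24. Its glucocorticoid mean of 7.50 was the highest of all trained mice. It differed from its group on all 3 lists, and whether these differences share a source was not tested. Of the 5 glucocorticoid genes called with all mice, all 5 were called without it.

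Hspa5 carries in its promoter the ER stress element, the site of factors that answer unfolded protein, which was found in 0.116% of all promoters and in 0 promoters of the genes called in FC4 against FC24, that of Sdf2l1 included. Its 250 bases before the start (chr2:34771840-34772089, plus strand, GRCm38.p6, RefSeq) are printed as an example of such an element, in capitals.
Hspa5: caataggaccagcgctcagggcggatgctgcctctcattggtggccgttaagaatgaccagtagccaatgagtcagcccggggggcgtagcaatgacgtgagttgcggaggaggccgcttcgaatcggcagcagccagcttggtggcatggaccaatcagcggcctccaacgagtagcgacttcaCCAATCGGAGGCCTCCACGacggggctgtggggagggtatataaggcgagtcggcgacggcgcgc
The element begins 65 bases before the start. The heat shock element core GAANNTTC and the cAMP response element TGACGTCA were found in 0 promoters of the called genes, against 6.64% and 2.41% of all promoters.

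**Figure D3:**
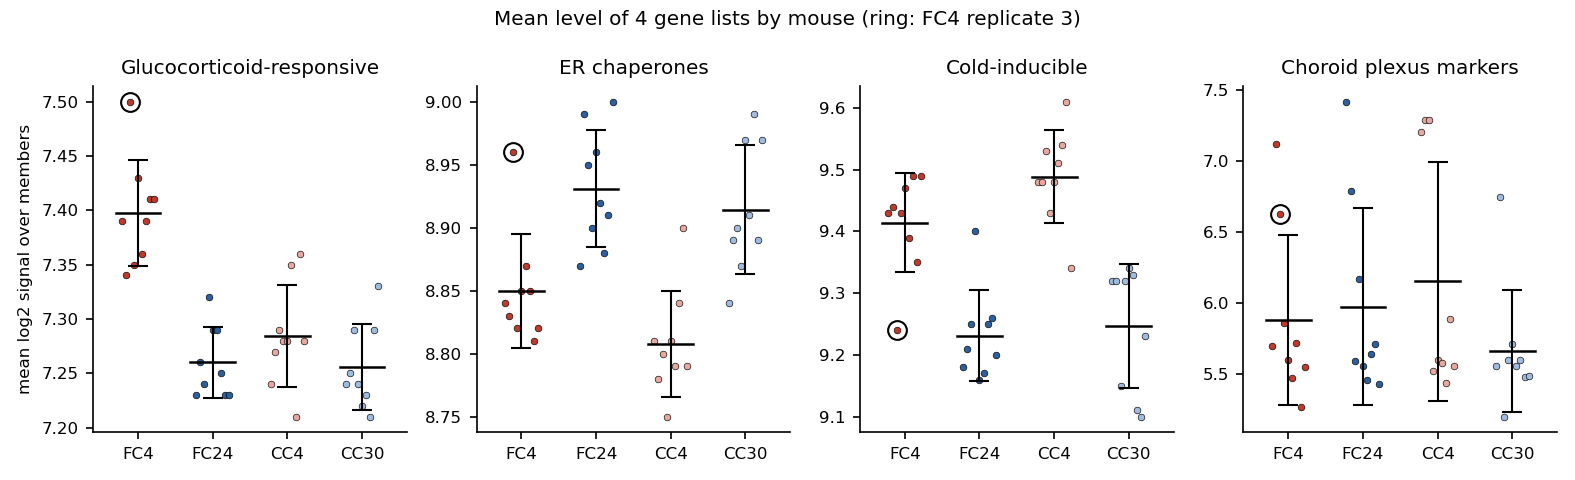
Mean log2 signal over the members of 4 gene lists (y axis, a separate scale for each list) in each mouse of FC4, FC24, CC4 and CC30; the long bar is the mean, the error bar the SD of 9 mice, and the ring marks FC4 replicate 3. The glucocorticoid list separates FC4 from FC24 in every mouse, and FC4 replicate 3 sits with the FC24 mice on the ER and cold-inducible lists. Choroid plexus markers were highest in FC4 replicates 2 and 3, FC24 replicates 1 and 2, CC4 replicates 1 to 3 and CC30 replicate 2.

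Inmt, an enzyme that methylates tryptamine and related amines, had the second largest rise. It read 5.00, 5.24 and 5.53 in FC4 and 4.38, 4.70 and 4.96 in FC24. The groups did not overlap, and the rise of 0.53 ± 0.07 was 1.45-fold (adjusted p = 0.00489). Of 10 choroid plexus markers, 0 were called and 3 were above 0, with a median of -0.06, and Ttr, which defines that tissue, read -0.53 ± 0.74. The 11 meningeal fibroblast markers had a median of 0.08 and 0 calls.

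Dsp, Pdzd2 and Grasp were also called higher in FC4. Dsp, the desmosome protein desmoplakin, read 7.42, 7.58 and 7.87 in FC4 and 7.11, 7.31 and 7.45 in FC24, a rise of 0.30 ± 0.06 (adjusted p = 0.0503) with 1 FC4 mouse inside the FC24 range. A second Dsp probe set read 0.05 and was not called. Pdzd2, a scaffold protein with PDZ domains, read 6.91, 6.99 and 7.19 against 6.62, 6.69 and 6.93, a rise of 0.28 ± 0.05 (adjusted p = 0.0376) with the same overlap of 1 mouse. Dsp and Pdzd2 were the 2 calls among 10 dentate granule cell markers, where 0.154% of all genes were called. Of these 10 markers, 5 lay above 0 and 5 below, with a median of -0.01. Prox1, which defines these cells, read 0.02 ± 0.05. On this list 1 gene was called without FC4 replicate 7 or 9 or FC24 replicate 2, 3 or 7, and 0 without FC24 replicate 6. Grasp, a scaffold for metabotropic glutamate receptors, rose by 0.19 ± 0.03 (adjusted p = 0.0302), from 8.74, 8.82 and 8.90 in FC24 to 8.88, 9.03 and 9.06 in FC4. One FC4 mouse lay within the FC24 range.

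Smaller rises were called for Pglyrp1, which recognises bacterial cell wall (0.24 ± 0.05), for the Nodal inhibitor Lefty1 (0.22 ± 0.04), for BC051142 (0.21 ± 0.04) and for the noncoding transcript Gm13375 (0.21 ± 0.04). Their adjusted p lay between 0.062 and 0.0869. Adamts3, a procollagen protease, rose by 0.22 ± 0.04 on 1 of its 16 probe sets, while its brightest read 0.03. A further 5 rises fell outside the rule for naming genes and were named after their values were seen: Id1, an inhibitor of helix-loop-helix factors (0.18 ± 0.03), the Ras regulator Rasal2 (0.18 ± 0.03), Mthfd1l of mitochondrial folate metabolism (0.17 ± 0.03), the adhesion protein Lpp (0.17 ± 0.03) and the ETS repressor Erf (0.16 ± 0.03). In Id1, Rasal2, Mthfd1l and Lpp the groups did not overlap. Lpp was called on 1 of its 3 probe sets, and its brightest read 0.18 without being called (adjusted p = 0.16).

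Among the called falls of probe sets with a single gene symbol, that of St3gal1 was the largest. St3gal1, a sialyltransferase that caps O-linked glycans, read 7.74, 7.93 and 8.04 in FC4 and 8.07, 8.28 and 8.36 in FC24. Every FC4 mouse was below every FC24 mouse, by -0.33 ± 0.04 on average (adjusted p = 0.00489), although a second St3gal1 probe set read -0.04. Mmp14, a membrane-bound matrix metalloprotease, read 6.29, 6.45 and 6.52 in FC4 and 6.53, 6.64 and 6.72 in FC24, without overlap, a fall of -0.22 ± 0.04 (adjusted p = 0.0265). Gm266, a gene without an assigned role, read 5.91, 6.19 and 6.26 against 6.30, 6.45 and 6.54, also without overlap (-0.28 ± 0.05, adjusted p = 0.0228).

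The remaining falls were small. Klf7, a zinc finger transcription factor of neurons, fell by 0.14 on the log2 scale with no overlap (8.83, 8.89 and 8.94 in FC4, 8.98, 9.02 and 9.14 in FC24, adjusted p = 0.0629). Castor2, of the family of arginine sensors upstream of mTORC1, and the scaffold Sash1 also read -0.14, each with 1 FC4 mouse within the FC24 range. A second Sash1 probe set read -0.03. Ccdc190 read -0.25 ± 0.04 (adjusted p = 0.044) and Fam124b -0.20 ± 0.04 (adjusted p = 0.0881). Hmcn1, an extracellular matrix protein with 77 probe sets, was called on 1 of them at -0.27 ± 0.05, 73 of the 77 lay below 0, and the brightest read 0.01. Of the 6 called probe sets without a single symbol, 5 had none and are not named here.

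The rest-phase changes of untrained mice were then set against those of trained mice. In CC4 against CC30, which also compares the middle with the early part of the light phase, 26 probe sets were called (0.0731%), 9 higher (0.0253%) and 17 lower (0.0478%), and 2209 had an unadjusted p under 0.05. The 2 comparisons share no mouse. Called the same way in both were 5 probe sets, 12.5% of the 40 and 19.2% of the 26: the 3 of Rbm3, that of Inmt and the one assigned to Dbp and Sphk2. Ciart was called in both on different probe sets, with 0.43 ± 0.08 in untrained mice (adjusted p = 0.0967) on the probe set that read 0.44 in trained mice. Of the 40 calls in trained mice, 37 had the same sign in untrained mice, against 54.7% of all probe sets, and 23 had that sign with an unadjusted p under 0.05, against 4.34% of all. Of the 26 calls in untrained mice, all 26 had the same sign in trained mice and 19 had it with an unadjusted p under 0.05, against 5.05% of all. Several of the 26, all called lower, had no gene symbol and identical values, -0.28 in untrained and -0.23 in trained mice. They repeat a single signal, and the 3 of Rbm3 ran in parallel, so these are counts of probe sets and not of separate transcripts.

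**Figure D4:**
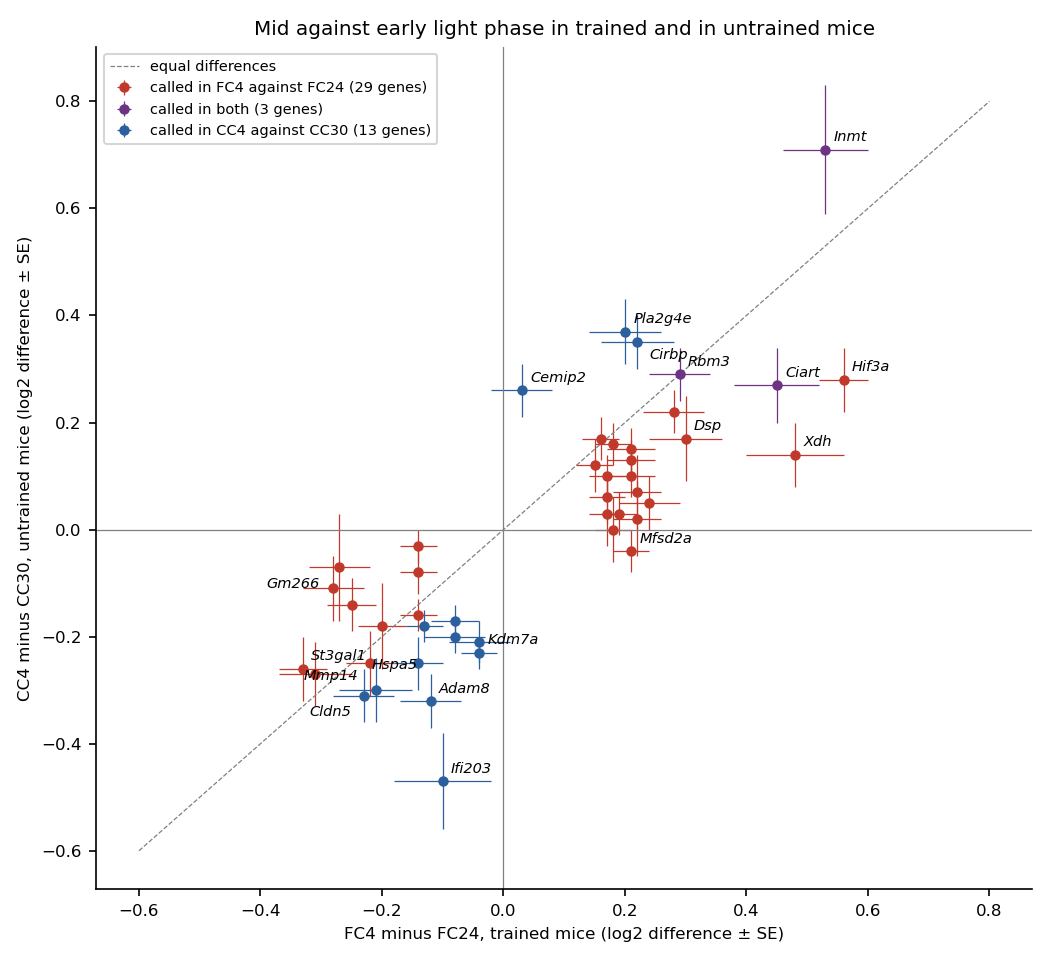
Log2 difference in trained mice (x axis, FC4 minus FC24) against untrained mice (y axis, CC4 minus CC30), each with its SE, for the 45 genes called in either comparison; red marks genes called in trained mice, blue those called in untrained mice, purple those called in both (Inmt, Rbm3 and Ciart, the last on different probe sets), and the dashed line marks equal differences. All points but Mfsd2a and Id1, whose difference in untrained mice rounds to 0.00, lie in the lower left or upper right, Rbm3 is close to the line, and Hif3a and Xdh lie below it.

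Rbm3 recurred at the same size, with 0.29 ± 0.05 in untrained mice (adjusted p = 0.0202), where CC4 read 10.46, 10.63 and 10.76 and CC30 read 10.08, 10.36 and 10.44 without overlap. The difference between its trained and untrained values was -0.01 (95% confidence interval -0.14 to 0.13). Inmt rose by 0.71 ± 0.12 in untrained mice (adjusted p = 0.0214), from 4.46, 4.71 and 4.98 in CC30 to 5.05, 5.44 and 6.14 in CC4. Choroid plexus markers were uneven there: their median difference was 0.41, all 10 were above 0, 0 were called, and the mean was 7.21 to 7.29 in CC4 replicates 1 to 3 against 5.44 to 5.89 in the other 6. CC4 replicate 3, the highest for Inmt at 6.14, was among these 3, and Inmt read 5.49 to 6.14 in these 3 mice and 5.05 to 5.53 in the other 6. In CC30 the mouse with the highest choroid plexus mean, replicate 2 at 6.75, read 4.96 for Inmt, the second highest of its group. In FC24 the choroid plexus means of replicates 1 and 2 were 7.42 and 6.79, against 5.43 to 6.17 in the other 7 mice, and these 2 mice had the highest Inmt signals of the group, 4.83 and 4.96, against 4.38 to 4.78. In FC4 the means of replicates 2 and 3 were 7.12 and 6.63, against 5.27 to 5.86 in the other 7 mice, and Inmt read 5.24 and 5.14 in these 2 mice, against 5.00 to 5.53. Meningeal fibroblast means were highest in FC4 replicate 1 (7.07), FC24 replicate 2 (7.07), CC4 replicate 6 (6.84) and CC30 replicate 5 (6.9). Inmt read 5.53, 4.96, 5.13 and 4.57 in these mice, the highest of its group in FC4 and FC24 but not in CC4 or CC30. The part of the choroid plexus or of the meninges in the Inmt values was not tested.

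Several falls had the same sign in untrained mice without being called there. In untrained mice St3gal1 read -0.26 ± 0.06 (adjusted p = 0.262), Sdf2l1 -0.27 ± 0.06 (adjusted p = 0.119), Mmp14 -0.25 ± 0.06 (adjusted p = 0.257) and Castor2 -0.16 ± 0.03 (adjusted p = 0.1). Each also had an unadjusted p under 0.05. With 1 probe set a gene, 0.0691% of all genes were called in untrained mice, 0.0266% higher and 0.0425% lower. On the ER list 2 of 19 genes were called lower there, Hspa5 (-0.30 ± 0.06) and the disulfide isomerase Pdia6 (-0.25 ± 0.05), both at an adjusted p of 0.0967, with a list median of -0.09 and 17 of 19 not called. Neither was called without CC4 replicate 8 or without CC30 replicate 3, the 2 mice left out in turn (adjusted p between 0.114 and 0.133). Pdia6 read -0.14 ± 0.04 in trained mice (adjusted p = 0.366). Sdf2l1 was not called there, so the ER genes called differed between the comparisons while Sdf2l1, Hspa5, Pdia6 and Creld2 read below 0 in both.

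Among the 16 genes called in untrained mice, 3 were called in trained mice (Inmt, Rbm3 and Ciart), 10 had an unadjusted p under 0.05 there in the same direction, and all 16 had the same sign. Cirbp read 0.35 ± 0.05 in untrained and 0.22 ± 0.06 in trained mice, and Cldn5 read -0.31 ± 0.05 and -0.23 ± 0.05. Pla2g4e, a phospholipase, read 0.37 ± 0.06 in untrained and 0.20 ± 0.06 in trained mice. Others read near 0 in trained mice: the histone demethylase Kdm7a read -0.23 ± 0.03 in untrained mice (adjusted p = 0.0195, the smallest of that comparison) and -0.04 ± 0.03 in trained mice, and Cemip2, which degrades hyaluronan, read 0.26 ± 0.05 and 0.03 ± 0.05. Gramd3, Plpp4, Mlec, Adam8, Sox11 and Ifi203 made up the rest, all lower in CC4, at -0.04 to -0.13 in trained mice. Cemip2, Plpp4 and Mlec, like Hspa5 and Pdia6, lost their call both without CC4 replicate 8 and without CC30 replicate 3. Ifi203 kept its call in 1 of these fits. For 6 of the 16 (Adam8, Cemip2, Ifi203, Kdm7a, Plpp4 and Sox11) the difference between the comparisons had an unadjusted p under 0.05, which did not pass adjustment.

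Whether the trained and untrained differences themselves differed was tested with an interaction term over the 36 arrays. In limma 0 probe sets were called (0.0%), and 1442 had an unadjusted p under 0.05. Among the 32 genes called in trained mice, 10 had an unadjusted p under 0.05 for the difference, which did not pass adjustment in any of them: Hif3a, Xdh, Pglyrp1, Adamts3, Dhx33, Mfsd2a, Grasp, Gm266, Klf7 and Id1. Hif3a rose by 0.28 ± 0.06 in untrained mice (adjusted p = 0.228), less than after training by 0.29 (95% confidence interval 0.13 to 0.44). For Xdh the untrained value was 0.14 ± 0.06 and the gap 0.34 (0.15 to 0.54). Mfsd2a was the 1 called gene with opposite sign, at -0.04 ± 0.04 in untrained mice, and the gap was 0.25 (0.14 to 0.35). The interaction was adjusted over all probe sets, so these intervals describe single genes that were picked by their trained values.

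Against the controls of their own hour, the same genes are given side by side, and since these comparisons share arrays with the others no overlap is counted. In FC4 against CC4 and in FC24 against CC30, 0 probe sets were called in each by limma (0.0%), and 1902 and 1534 had an unadjusted p under 0.05. These fits did not pair mice, and whether replicate numbers pair them was not tested. Hif3a read 0.27 in FC4 minus CC4 and -0.02 in FC24 minus CC30. Xdh read 0.30 and -0.04, Mfsd2a 0.23 and -0.01, and Mt2 0.10 and -0.04. Per1, the fifth called gene of the glucocorticoid list, read 0.02 and -0.01. The glucocorticoid list as a whole had a median of 0.12 in FC4 minus FC24 and of 0.04 in CC4 minus CC30, where 0 of 22 were called. Its mean signal was 7.21 to 7.36 in CC4 and 7.21 to 7.33 in CC30, with 7.34 to 7.50 in FC4 as given above. Rbm3 read -0.06 and -0.05, Ciart 0.04 and -0.15, and St3gal1 -0.06 and 0.02.

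Of 26 activity-induced early genes, 0 were called and the median was -0.01: Arc read -0.06 ± 0.07, Fos -0.01 ± 0.08, Npas4 0.11 ± 0.07 and Egr1 -0.13 ± 0.04 (adjusted p = 0.367). In untrained mice Arc read -0.25 ± 0.06 (adjusted p = 0.216). No call was made in 20 of the 28 lists, among them cholesterol synthesis, histones, splicing factors, oxidative phosphorylation, glutamate receptors, and the markers of oligodendrocytes, astrocytes and microglia, and their medians lay between -0.06 and 0.08. Fabp7, a radial glial fatty acid carrier with a known daily rhythm, read -0.05 ± 0.04, Cstad 0.24 ± 0.07 (adjusted p = 0.317) and the myelin gene Opalin 0.03 ± 0.08. In bulk tissue a lower signal can come from fewer cells of a type or from less RNA per cell, and these cannot be told apart.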

How the data were processed

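Hippocampal RNA was measured on Affymetrix whole-transcript arrays, 1 for each of 72 mice in 8 groups of 9, hybridised together. The values the authors deposited are log2 signals from RMA (background correction, quantile normalization and summary of probes into 35556 probe sets), to 2 decimals. Array medians lay between 5.82 and 5.88. The genome build and the version of RMA are not given in the sources used here. The first principal component over all 72 arrays, which held 17.4% of the variance, was subtracted. The study's methods also subtract a first component, but state a larger share of variance for it, so the step used here may differ from theirs.

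Groups came from the sample labels. FC4 against FC24, CC4 against CC30, FC4 against CC4 and FC24 against CC30 were each fitted in limma 3.58.1 (R 4.3.3), each on the 18 arrays of its groups, and the difference between the first pair with an interaction term over 36. Tests were two-sided, with Benjamini-Hochberg adjustment over all probe sets and a threshold of 0.1. The scripts were tested on simulated data. The number of mice sets the precision, and the standard error of FC4 minus FC24 had a median of 0.049. Replicates are separate mice.

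Symbols came from the platform annotation, with 21218 probe sets of 1 symbol, 1881 of several and 12457 of none. A gene was represented by its brightest probe set, unless another was called. Genes were named if among the 15 largest rises or falls, called in CC4 against CC30, members of a list that passed, up to 4 examples of a list with no call, or among 13 genes known from the series. Examples beyond this rule were chosen after their values were seen. The 28 gene lists hold 377 symbols, 38 of them not matched. Members and lists were chosen with earlier results of these data known. Python 3.11.15, numpy 2.4.6, pandas 2.3.3 and matplotlib 3.10.9 were used for the rest.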

Additional observations from a re-analysis of the deposited data

Results flagged for a closer look

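Of 70 groups of values tested, 4 held a mouse far from the others of its group by Dixon's test, and chance flags about 1 in 20. In 3 of them the mouse was FC4 replicate 3, with log2 signals of 10.32 for Rbm3 (the lowest of its group), 8.32 for Gm13375 (the lowest) and 8.21 for Sdf2l1 (the highest). The last was the score of FC24 replicate 4 on the first principal component, 2.8. Without that mouse FC4 against FC24 gave 40 called probe sets, as with it, 35 of them shared.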

How the results depend on the processing

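The count of 40 in FC4 against FC24 was 62 with the first 2 principal components removed, 62 with only probe sets of 1 gene symbol and 119 with local false discovery rates of the methods' t-test. It ran from 17 to 69 with 1 mouse left out, and was between 28 and 60 in the 9 other settings without a replicate block. The count of 26 in CC4 against CC30 was 47 with 2 components removed, 108 with all 8 groups in one fit and 152 with local false discovery rates. The 5 probe sets called in both became 8 with 2 components removed, 20 with all 8 groups in one fit, 21 with local false discovery rates, 8 with an intensity trend, 8 with array weights, 11 without the dimmest probe sets and 10 with probe sets of 1 symbol. The cause was not tested, except that the last pair test fewer probe sets. The interaction gave 0 in all settings run. The 3 arrays apart were FC24 replicate 4, CC30 replicate 3 (28.78 on the first component) and CC4 replicate 8 (-49.05 on the second). CC4 against CC30 gave 24 called probe sets without CC4 replicate 8, 18 of them among the 26. Without CC30 replicate 3 it gave 22, 19 of them among the 26. Leaving out CC30 replicate 3 or the 3 arrays apart was chosen after seeing the data. No called value changed sign. The share of higher calls fell from 70.0% to 49.3% without FC4 replicate 3 (34 higher, 35 lower). Hif3a, Inmt, Xdh, Ciart and Gm266 were called in all 13 settings.

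Replicate numbers did not pair the mice of FC4 with those of FC24: same-number correlations of deviations ran from -0.105 to 0.125, and 2 of 9 mice matched their own number best. Whether replicate numbers pair mice of the same hour, FC4 with CC4 or FC24 with CC30, was not tested. With the number as a replicate block 9 probe sets were called in FC4 against FC24, 0 in CC4 against CC30 and 0 in both.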
